A study of Danio rerio with 13 samples.

Results

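The baseline muscle transcriptome of wild type male zebrafish was described in 4 of the 13 muscle libraries of the series. Members were the libraries labelled wild type in which ddx4 (DDX4 in the gene table, ENSDARG00000014373), an RNA helicase gene of germ cells, lay under 50 CPM (a gene's counts after each library is scaled to a total of 1000000 gene counts). The rule used that 1 measured value, so the ddx4 levels are given as a description with no test. The 4 members had 1.66, 0.0812, 0.0573 and 0 CPM of ddx4, from 60, 3, 2 and 0 counts, and a count of 0 allows up to 0.073 CPM in that library. The member nearest to the limit was wild type 1, and the fifth wild type library, with 116 CPM, lay outside it and was left out.

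All 13 libraries came from muscle of 3 month old male fish of the AB strain, and the genotypes were wild type (5 libraries), tert+/- (5) and tert-/- (3) for the hu3430 mutation of tert, which encodes the catalytic subunit of telomerase. The 4 wild types, called here wild type 1 to wild type 4 (a number is only a name), were set beside the 6 mutants that also had ddx4 under the limit, 4 tert+/- and 2 tert-/- libraries. The labels name no transgene and no agent for any of these fish. The labels do not say whether libraries share a clutch, a tank or a preparation day, so p-values measure only the spread between these libraries.

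Most of the trunk muscle of a zebrafish is fast muscle, whose fibres contract quickly and draw on phosphocreatine and glycolysis, while a thin superficial layer of slow fibres holds myoglobin and many mitochondria and burns fat. Parvalbumins bind calcium in the cytosol of fast fibres and help them to relax. A whole genome duplication in the ancestor of teleost fish left many muscle genes as pairs of paralogs, so that a protein known by 1 name in mammals is often encoded here by several genes.

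The 4 libraries held 34895079 to 41116899 gene counts, with 10835 genes at 1 CPM or more in every one, against 27652851 to 47492321 counts in the 6 mutants. Skeletal muscle markers, 11 genes led by actc1b and myhc4, took 31.1% ± 2.06 (SD, n = 4) of the counts, and the mutants ranged from 28.7% to 33.9%. The markers that define other tissues were at or near 0 for heart, where the highest level was 0.0573 CPM for MYL7, and for testis, where the 5 markers other than ddx4 stayed at or below 0.941 CPM with their highest level in wild type 1. Liver markers summed to 0.0116% ± 0.00127 of the counts, nerve and Schwann cell markers to 0.0474% ± 0.00612 and skin markers to 0.0371% ± 0.0182 (SD, n = 4 each). The tert gene itself (TERT in the gene table) had 7.80, 4.30, 4.73 and 4.77 CPM in wild types 1 to 4, and 3.25 to 5.71 CPM in the 6 mutants.

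Wild type 1 stood apart from the other 3 fish. Across 12362 genes, which all come from the same libraries, the Pearson correlation of log2 CPM was 0.916 to 0.925 between wild type 1 and each other member, and 0.974 to 0.976 among wild types 2, 3 and 4. Of the 6468 genes with a mean of at least 5 CPM, 290 (4.48%) were more than 2-fold above all 3 other fish in wild type 1 and 445 (6.88%) more than 2-fold below them. The same counts were 8 to 28 genes above and 9 to 20 genes below in the other fish. Wild type 1 was the highest fish for 35.7% and the lowest for 43.6% of all 6468 genes. A pair of genes high in wild type 1 was chosen after their values were seen. SF3B1, a core part of the U2 particle of the spliceosome, had 427 CPM in wild type 1 and 141, 140 and 138 CPM in wild types 2 to 4, and the serine and arginine rich factor gene SRSF11 had 301 CPM against 93.4, 105 and 93.5 CPM. Genes far lower in wild type 1 included ACADVL, which encodes the first enzyme of long chain fatty acid oxidation in mitochondria, at 28.9 CPM and 472, 313 and 234 CPM in the others, and UNC45B, a chaperone gene for myosin folding, at 33.7 CPM and 260.9, 336 and 235 CPM. Grouped into 8 bins by gene length, the median difference of wild type 1 from the 4-fish mean was 0.07 on the log2 scale in the bin of the shortest genes, -0.14 in the middle bins at its lowest, and 0.07 in the bin of the longest. Whether sampling, handling or the library preparation had a part in these differences was not tested, and results below are given with each fish's value so that wild type 1 can be set aside.

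A few contractile and energy genes held most of the counts. The gene with the most counts, actc1b, which encodes the main sarcomeric actin, took 9.22%, 9.59%, 10.3% and 10.3% of the counts in wild types 1 to 4. The fast myosin heavy chain gene myhc4 followed with 6.24%, 5.73%, 5.74% and 7.5%, and the fast regulatory light chain gene MYL11 (ENSDARG00000053254) with 5.54%, 4.94%, 4.79% and 5.13%. All 4 fish had these 3 genes in the same order.

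The 10 genes with the most counts took 42.6% ± 1.67 of a library (SD, n = 4; range 40.6% to 44.0%), the first 100 took 75.7% ± 0.772 and the first 1000 took 90.5% ± 0.254. In the 6 mutants the 10 most counted genes took 38.5% to 43.4%. Between 13 and 15 genes were enough to reach 50% of the counts in each fish. The 20 genes that led on average were also the 20 that led in wild types 2, 3 and 4, and 19 of them led in wild type 1.

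**Figure D1:**
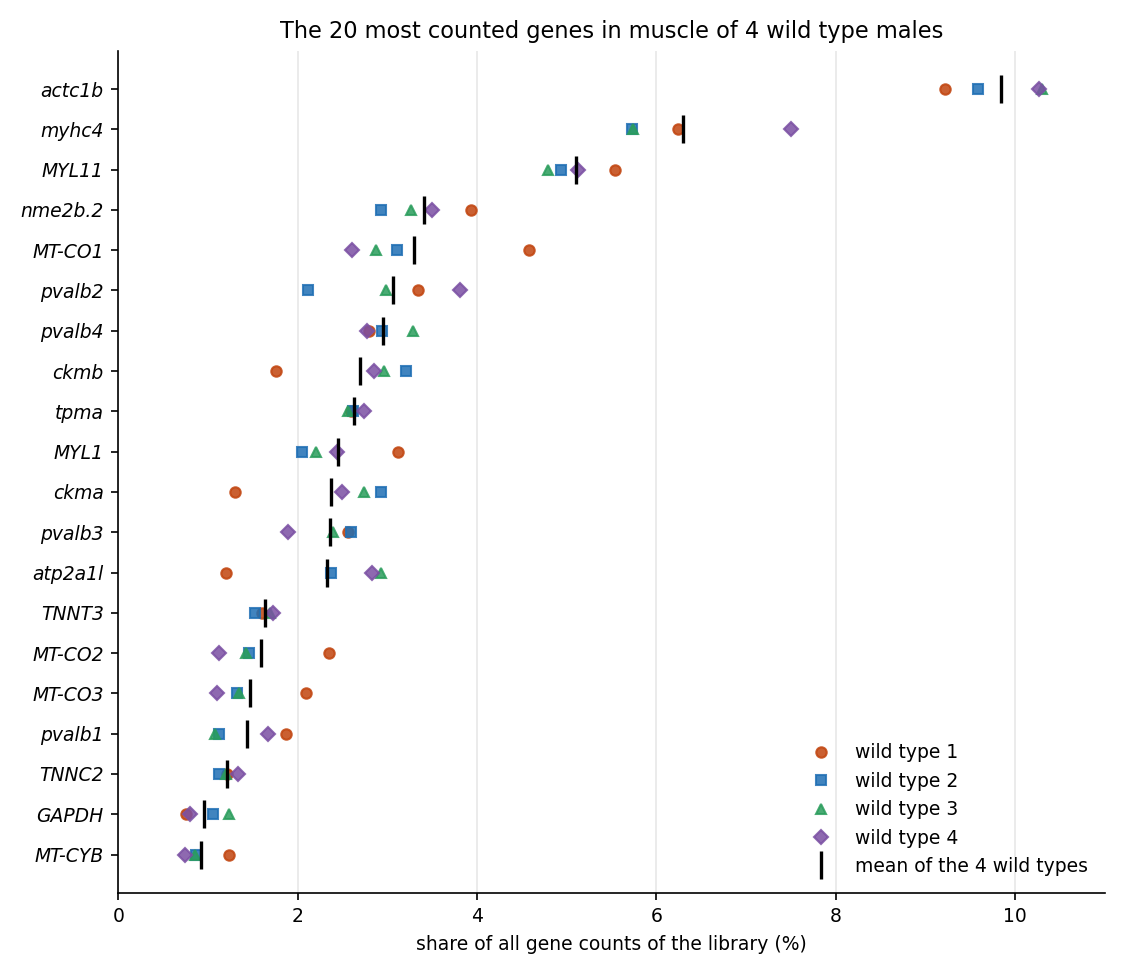
The 20 genes with the largest mean share of the counts, from most to least counted, with the share in each of the 4 wild types as a point (percent of a library's gene counts) and the mean as a vertical line. Points for actc1b sit between 9.22% and 10.3%, while ckma, ckmb and atp2a1l are lowest, and MT-CO1 to MT-CO3 highest, in wild type 1.

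After the first 3 came genes for energy and calcium. The nucleoside diphosphate kinase gene nme2b.2, whose product passes phosphate between nucleotides, took 3.93%, 2.92%, 3.26% and 3.50%. The parvalbumin genes pvalb2 and pvalb4 took 3.06% ± 0.713 and 2.95% ± 0.234, and the creatine kinase genes ckmb and ckma, whose products rebuild ATP from phosphocreatine, took 2.69% ± 0.643 and 2.37% ± 0.736 (SD, n = 4 each). Wild type 1 had the lowest share of both creatine kinase genes, 1.76% of ckmb and 1.3% of ckma, and the other fish lay between 2.85% and 3.20% for ckmb and between 2.49% and 2.93% for ckma. Genes encoded by the mitochondrial genome filled 4 of the first 20 places, of which MT-CO1, subunit I of cytochrome c oxidase, took 4.58%, 3.10%, 2.88% and 2.61%.

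Counts rise with transcript length, so levels of different genes were compared per length, in TPM (counts divided by gene length, then scaled to the same total). In TPM actc1b again led with 111154 ± 11018, and pvalb4 (60228 ± 6124), MYL11 (48201 ± 2086), pvalb3 (41225 ± 4740), nme2b.2 (40645 ± 4061) and pvalb2 (37544 ± 9244) followed (SD, n = 4 each). The distances between pvalb3, nme2b.2 and pvalb2 were smaller than their SDs, so these neighbours in the order did not differ beyond their spread. The long myhc4 transcript moved down to place 16 with 15258 ± 2480 TPM. The giant scaffold titin, TTN (ENSDARG00000028213), was in place 23 by counts with 0.680% ± 0.0282, and in place 447 by TPM with a level of 95.6. Of the 20 genes first by counts, 18 were also among the first 20 by TPM.

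Within gene families, 1 paralog often carried nearly the whole output. Of 20 families examined, 7 had a paralog with over 90% of the family's TPM on average and 16 had one with over 50%. The leading paralog was the same in all 4 fish in 16 families, and it was the same by counts and by TPM in 17. The sources used here do not say how reads that fit several paralogs were counted, so splits among near-identical copies are uncertain.

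Of the thin filament families, actin, troponin T, troponin C and tropomyosin were one-sided, while troponin I was split (below). Of the TPM of 9 actin genes, actc1b held 98.7%, 97.9%, 98.7% and 98.6% in wild types 1 to 4, and of 8 troponin T genes TNNT3 held 99.2%, 97.2%, 98.6% and 99.2%. The fast troponin C gene TNNC2 held 97.6% ± 1.4 of its family and the tropomyosin gene tpma 96.4% ± 1.64. Wild type 2 had the lowest share for actc1b, TNNT3 and TNNC2. The same fish had the highest slow paralog shares, with TNNC1, the slow and cardiac troponin C gene, at 3.32% of its family in wild type 2 and at 0.871%, 1.76% and 0.952% in wild types 1, 3 and 4.

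Among 15 striated myosin heavy chain genes, myhc4 held 95.3%, 88.9%, 92.1% and 92.8% of the family TPM. The fast paralog myhz1.1l came next with 3.46%, 9.22%, 6.298% and 4.65%, and all other members averaged 1.03% or less. The fish at the ends were wild type 1, with the least myhz1.1l, and wild type 2, with the most. In the myosin binding protein C family, whose products brace the thick filament, mybpc2b held 92.5% ± 1.63, and in the nucleoside diphosphate kinase family nme2b.2 held 96.1% ± 0.301 (SD, n = 4 each).

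Other families were shared between paralogs. The 4 main parvalbumin genes pvalb4, pvalb3, pvalb2 and pvalb1 held 37.4% ± 3.97, 25.7% ± 4.16, 23.1% ± 4.63 and 13.7% ± 3.23 of their family's TPM. The muscle creatine kinase genes ckmb and ckma were near parity with 47.0% ± 2.36 and 45.3% ± 2.43, and their order was not the same in all 4 fish. A pair of fast troponin I genes, both named TNNI2, changed places among the fish: ENSDARG00000013752 held 58.1%, 47.9%, 39.3% and 38.58%, and ENSDARG00000029995 held 34.6%, 37.8%, 50.3% and 53.8%. The alpha actinin genes of fast fibres, actn3a and actn3b, held 54.2% ± 6.79 and 44.8% ± 6.83, and the phosphofructokinase genes named PFKM, which encode a control step of glycolysis, held 52.0% ± 5.61 and 46.4% ± 5.13 (SD, n = 4 each).

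**Figure D2:**
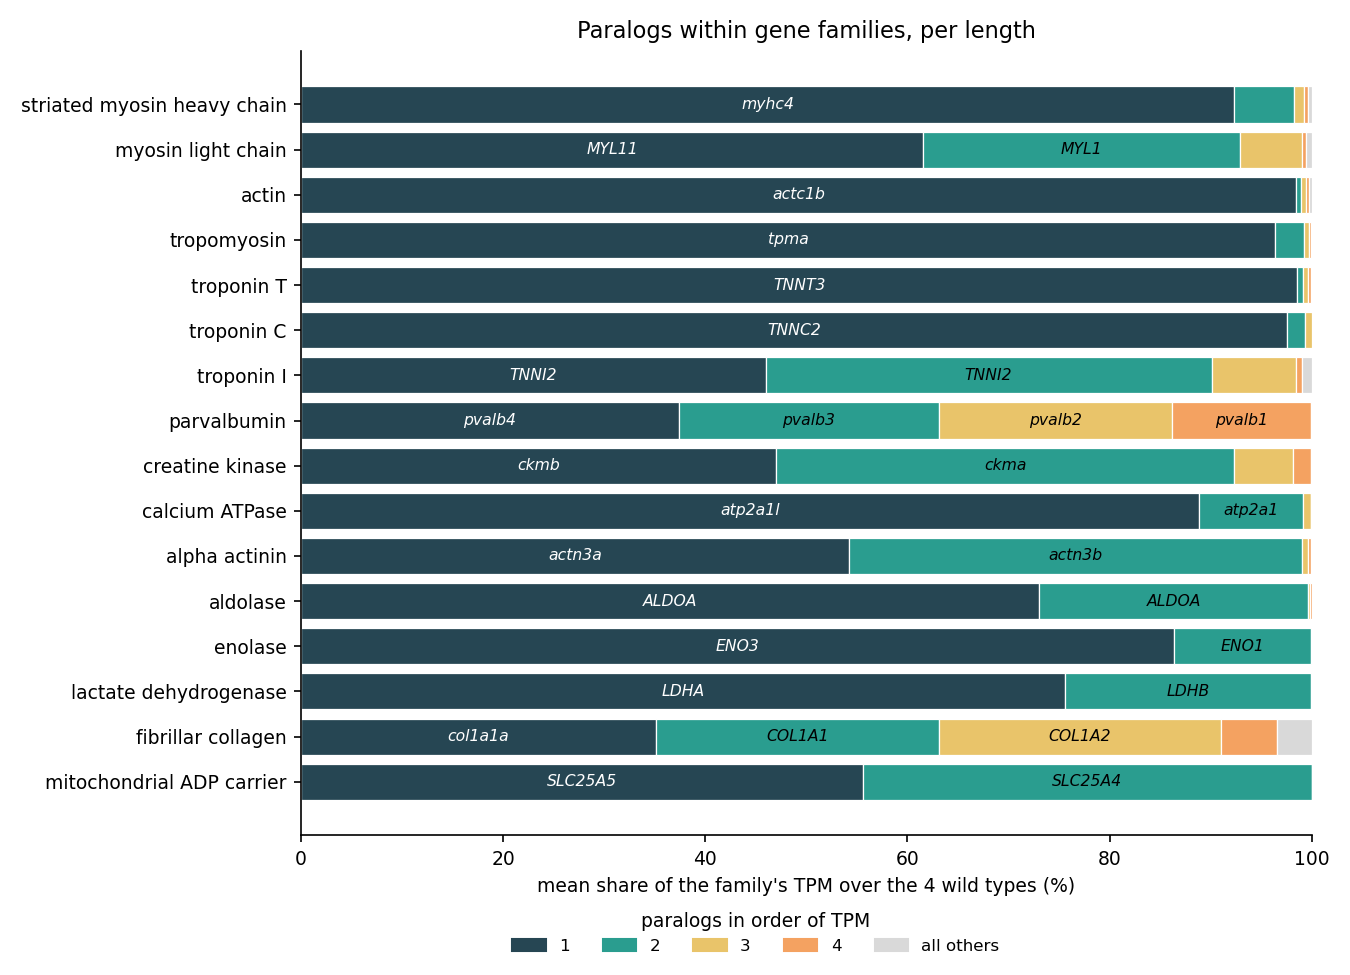
Share of each family's TPM held by its paralogs, ranked from the leading one, as the mean of the 4 wild types (percent, stacked bars by family). The actin, troponin T, troponin C and tropomyosin bars are nearly filled by 1 paralog, while parvalbumins, creatine kinases, troponin I and alpha actinin are split. Nucleoside diphosphate kinase and phosphofructokinase are not drawn.

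The fast fibre list outweighed the slow fibre list by more than 100 to 1 in every fish. The 39 genes of the fast list took 44.4%, 42.8%, 45.2% and 48.5% of the counts in wild types 1 to 4, and 40.6% to 48.6% in the 6 mutants. The slow list, 30 genes with a count, took 0.140%, 0.413%, 0.258% and 0.180%, and 0.113% to 0.501% in the mutants. The ratio of fast to slow counts was thus 317, 103, 175 and 270 in the wild types, with a mean of 216 ± 95.5 (SD, n = 4), and its range in the mutants was 81.0 to 428. The fast list includes the sarcomeric actin gene actc1b, with 9.22% to 10.3% of the counts, which raises this ratio. The slow list has no actin gene. For myosin heavy chain genes alone the ratio of fast to slow counts was 277, 149, 295 and 492 in wild types 1 to 4. The slow share differed 2.95-fold between the highest and the lowest fish and the fast share 1.13-fold. In bulk tissue, fewer slow fibres in a sample and less slow transcript per fibre cannot be told apart.

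Most slow genes were highest in wild type 2. Of 24 slow genes with a mean of at least 5 CPM, 16 were highest in wild type 2, the fish that was highest for 26.7% of all 6468 genes, 5 in wild type 3 and 3 in wild type 1, and 17 were lowest in wild type 1, lowest for 43.6% of all genes. Their median coefficient of variation (CV, the SD over the mean after counting variance was taken off) was 56.5%, beside 18.9% for all genes. Without wild type 1 these medians were 48.3% and 9.06%. The number over 4-fold between the highest and the lowest fish was 12 of 24, beside 4.5% of all 6468 genes. Without wild type 1 it was 4 of 24, beside 60 of the 6468.

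Slow genes highest in wild type 2 covered several roles. Myoglobin, the oxygen store of slow fibres (mb), had 116, 459, 162 and 67.5 CPM in wild types 1 to 4, and atp2a2a, the slow and cardiac calcium pump of the sarcoplasmic reticulum, had 55.5, 522, 304 and 165 CPM. The slow myosin heavy chain gene smyhc1 had 16.0, 147, 56.7 and 50.5 CPM. All 3 were highest in wild type 2, and which fish was lowest differed, wild type 4 for mb and wild type 1 for the other two. The light chain genes myl13 (93.9, 457, 228 and 119 CPM) and myl10 (92.0, 344, 185 and 96.0 CPM) had the same order of fish as atp2a2a. The 3 slow genes highest in wild type 1 were the slow myosin genes myh7ba (102, 55.0, 30.1 and 16.1 CPM) and myh7bb (64.1, 44.8, 41.4 and 30.2 CPM) and MYOZ2 (ENSDARG00000012311; 198, 140, 148 and 117 CPM), which encodes an anchor protein of the Z disc. All 3 were lowest in wild type 4. In the 6 mutants mb ranged from 112 to 528 CPM and smyhc1 from 23.3 to 120 CPM, so that both groups overlapped.

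Wild type 4 led most of the fast genes. Of 35 fast genes at 5 CPM or more, 19 were highest in wild type 4, the highest fish for 18.9% of all genes, and 18 were lowest in wild type 1, the lowest fish for 43.6% of all genes. The minor fast myosin genes spread more than myhc4. For myha the values were 257, 89.2, 105 and 670 CPM, and for myhz2 they were 299, 732, 694 and 1147 CPM, with wild type 4 highest for both and different fish lowest. The calcium pump gene of fast fibres, atp2a1l, had 11972, 23755, 29307 and 28242 CPM, and its paralog atp2a1 had 882, 5500, 3861 and 3436 CPM. Wild type 1 was lowest for both pumps, and the other 3 fish lay close together for atp2a1l.

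**Figure D3:**
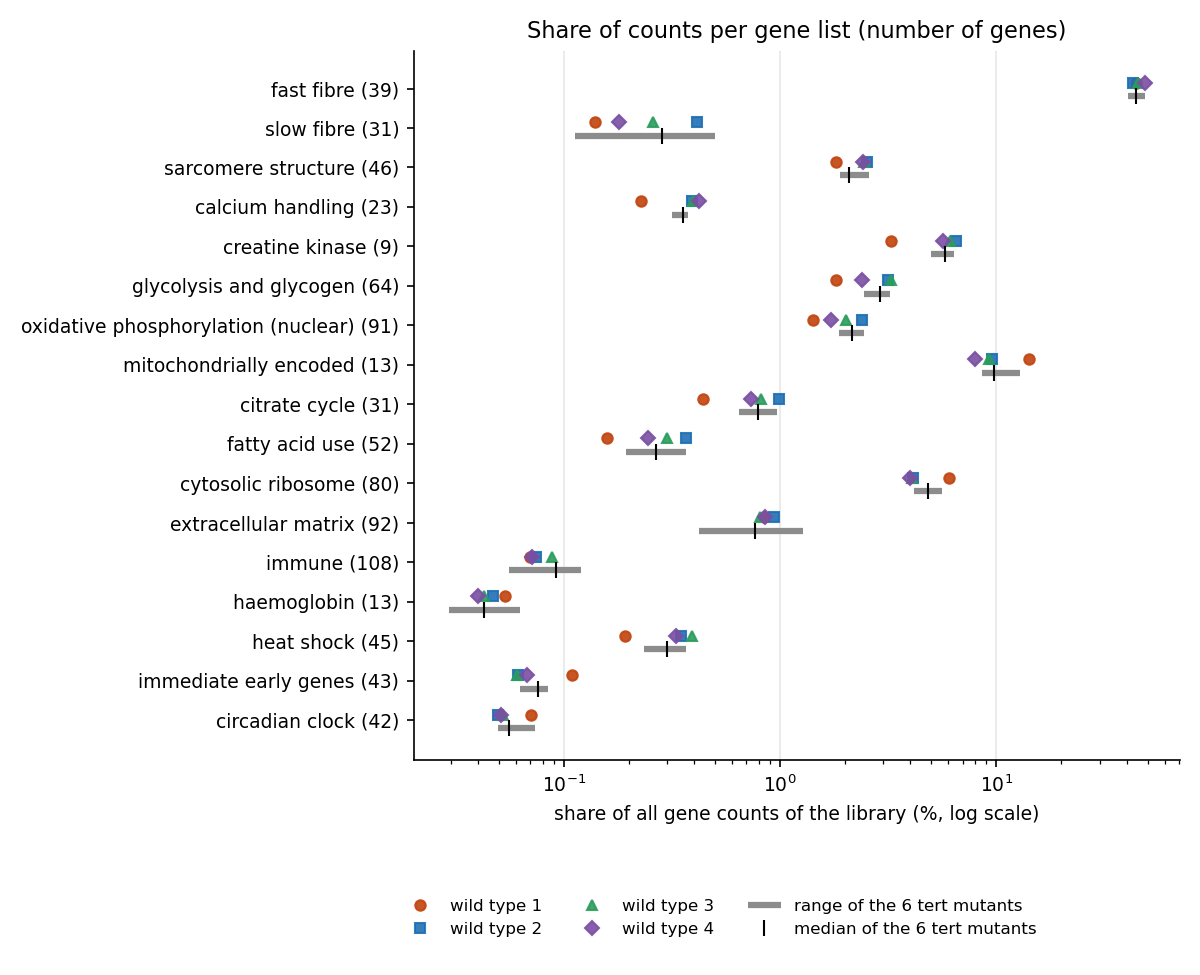
Share of the counts taken by each gene list (percent, log axis), with the 4 wild types as coloured points above a grey bar for the range of the 6 mutants and a black line for their median. Fast fibre genes lie between 42.8% and 48.5% and slow fibre genes between 0.140% and 0.413% in the wild types, and the ranges of the groups overlap in every list.

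Most glycolysis genes were lowest in wild type 1. The 64 glycolysis and glycogen genes took 1.81%, 3.15%, 3.28% and 2.39% of the counts in wild types 1 to 4, and 2.44% to 3.24% in the mutants, and 31 of the 43 at 5 CPM or more were lowest in wild type 1, beside 43.6% of all genes. GAPDH, a mid pathway dehydrogenase, led the list with 7571, 10531, 12324 and 7967 CPM. The aldolase gene ALDOA (ENSDARG00000011665) followed with 2076, 5802, 5523 and 3829 CPM and the muscle enolase gene ENO3 with 2916, 4722, 4766 and 3160 CPM. These 3 genes were high in wild types 2 and 3 and low in wild types 1 and 4. PYGM (ENSDARG00000055518), the muscle glycogen phosphorylase gene that starts glycogen breakdown, had 148, 679, 701 and 835 CPM, which made wild type 4 the highest. Lactate dehydrogenase was mostly LDHA, with 75.6% ± 0.770 of its family's TPM. Of 8 creatine kinase and creatine synthesis genes at 5 CPM or more, 4 were lowest in wild type 1, among them ckma and ckmb. This is near the 43.6% of all genes. The 2 genes highest there, beside 35.7% of all genes, were both CKB genes, which encode the brain type enzyme.

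Mitochondrial genes fell into separate patterns by the genome that encodes them. The 13 protein genes of the mitochondrial genome took 14.2%, 9.59%, 9.24% and 7.93% of the counts in wild types 1 to 4, and 8.60% to 12.8% in the mutants. All 13 were highest in wild type 1 and lowest in wild type 4, beside 35.7% and 25.5% of all genes. The 91 listed nuclear genes of oxidative phosphorylation took 1.42%, 2.4%, 2.01% and 1.71%, against 1.87% to 2.46% in the mutants. Of 88 at 5 CPM or more, 72 were highest in wild type 2, beside 26.7% of all genes. Counts of the mitochondrially encoded list were thus 10.01 times those of the nuclear list in wild type 1, and 3.99, 4.60 and 4.63 times in wild types 2 to 4, where the mutants lay between 4.30 and 5.22. Counts from the mitochondrial genome share 1 denominator with all other genes, and without them in the total the fast list would take 50.4% in place of 45.2%.

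The nuclear subunits spanned a wide range. ATP5F1B, the catalytic beta subunit of ATP synthase, led with 1197, 3158, 2591 and 2258 CPM, and its partner ATP5F1A had 844, 2349, 1735 and 1665 CPM. SDHA, the flavoprotein subunit of succinate dehydrogenase, had 72.8, 371, 296 and 221 CPM. The order of the fish was the same for all 3, with wild type 2 first and wild type 1 last. Over the list, 44 of 88 nuclear genes were lowest in wild type 1, beside 43.6% of all genes. Another 41 were lowest in wild type 4, beside 25.5% of all genes. Wild type 1 was highest for 14 of the 88, beside 35.7% of all genes.

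Genes that feed the respiratory chain were, like the nuclear subunits, mostly highest in wild type 2, but more of them were lowest in wild type 1. Of 25 citrate cycle genes at 5 CPM or more, 19 were highest in wild type 2 and 22 lowest in wild type 1. For all genes these shares were 26.7% and 43.6%. Citrate cycle genes took 0.439%, 0.990%, 0.814% and 0.737% of the counts in wild types 1 to 4, with IDH2, a mitochondrial isocitrate dehydrogenase, first at 1415, 2541, 2033 and 1869 CPM. Genes for fatty acid use took 0.158%, 0.368%, 0.3% and 0.246%, and 25 of 35 were highest in wild type 2 and 25 lowest in wild type 1. HADHB, a subunit of the trifunctional enzyme of beta oxidation, had 164, 478, 374 and 306 CPM. A member that went the other way was fabp4a, a fatty acid binding protein gene, with 278, 161, 163 and 103 CPM. The highest fish for it was wild type 1.

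Genes of calcium release and of the sarcomere scaffold took a smaller share of the counts in wild type 1 than in the rest. Calcium handling genes took 0.228%, 0.392%, 0.397% and 0.421% of the counts, led by the calcium release channel genes RYR3 (335, 939, 916 and 1077 CPM) and RYR1 (ENSDARG00000023797; 308, 532, 460 and 557 CPM). Sarcomere scaffold genes took 1.82%, 2.52%, 2.46% and 2.43%. The main TTN gene hardly differed, with 6633, 7220, 6723 and 6630 CPM, while its paralog ENSDARG00000000563 had 856, 2818, 1745 and 1282 CPM. For the paralog wild type 2 was highest, and the range of the mutants, 744 to 2326 CPM, lay below it.

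Extracellular matrix genes took an even share of the counts in the 4 fish. The 92 genes took 0.843%, 0.942%, 0.807% and 0.855% of the counts in wild types 1 to 4, a mean of 0.862% ± 0.0570 (SD, n = 4), where the mutants ranged from 0.424% to 1.27%. Type I collagen, the main fibre of connective tissue, led: col1a1a had 1606, 1780, 1545 and 1686 CPM, COL1A2 had 1204, 1395, 1134 and 1300 CPM and COL1A1 had 1174, 1360, 1218 and 1174 CPM. These 3 chains differed by at most 1.23-fold between the wild types, and between 705 and 2421 CPM for col1a1a in the mutants. SPARC, which encodes a collagen binding glycoprotein, had 564, 511, 471 and 442 CPM.

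The evenness held for the summed share and the type I collagens, not for matrix genes one by one. The 61 matrix genes at 5 CPM or more had a median CV of 19.2%, beside 18.9% for all genes. Without wild type 1 these medians were 13.6% and 9.06%. Wild type 2 was highest for 35 of the 61, beside 26.7% of all genes. TIMP2 (ENSDARG00000075261), an inhibitor of matrix proteases, had 4.70, 26.3, 4.33 and 38.9 CPM, and the network collagen gene COL10A1 (ENSDARG00000054753) had 4.79, 27.06, 6.48 and 10.8 CPM. The high fish were wild types 2 and 4 for TIMP2 and wild type 2 for COL10A1. Over the list, 3 of 61 genes at 5 CPM or more differed by over 4-fold, which is 4.92% beside 4.5% of all genes. The small proteoglycan gene DCN, which coats collagen fibrils, was one of the 10 least variable genes with a symbol and a mean of at least 50 CPM, with 115, 107, 112 and 110 CPM.

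Immune genes were scarce. The 108 listed genes took 0.0700%, 0.0743%, 0.0884% and 0.0714% of the counts in wild types 1 to 4, and 0.0557% to 0.121% in the mutants, and 31 reached a mean of 5 CPM. The best counted were b2ml, a light chain gene of class I histocompatibility molecules, with 70.33, 95.2, 102 and 80.9 CPM, the chemokine gene cxcl12b with 71.2, 86.2, 71.6 and 67.8 CPM, and cd74a, the invariant chain gene of class II molecules, with 78.0, 79.4, 84.5 and 49.5 CPM. Wild type 3 was highest for 15 of the 31 genes, where it was highest for 18.7% of all genes. The markers of macrophages and neutrophils summed to 0.00102% ± 0.000507 (SD, n = 4), and the neutrophil and macrophage lysozyme gene lyz had 0.719, 9.23, 2.75 and 2.38 CPM.

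Some immune genes were present in some fish and nearly absent in others. The class I histocompatibility gene mhc1uba had 0.0277, 0.244, 0.602 and 40.3 CPM in wild types 1 to 4, from 1, 9, 21 and 1658 counts. Mutants ranged from 0.136 to 69.3 CPM with a median of 34.3 CPM. The class II gene mhc2dab had 0.443, 1.11, 13.7 and 8.20 CPM, and nlrc8, of a large and repetitive receptor family, had 10.8, 0, 12.2 and 0.0243 CPM. Wild type 4 alone was high for mhc1uba, wild types 3 and 4 were high for mhc2dab, and wild types 1 and 3 were high for nlrc8. Such genes belong to families with many similar copies, so reads may be counted to another copy. The terminal complement gene c7b had 1.13, 2.60, 2.78 and 14.9 CPM, with wild type 4 high again.

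Blood genes were a small part of the libraries, even in the summed share of globins but not in every gene. Globin genes took 0.0534%, 0.0469%, 0.0427% and 0.0402% of the counts in wild types 1 to 4, and 0.0294% to 0.0625% in the mutants. The beta globin gene ENSDARG00000089087, listed in the gene names as HBE1, had 293, 262, 261.1 and 247 CPM and the alpha globin gene hbaa1 had 186, 144, 124 and 118 CPM. Both were highest in wild type 1 and lowest in wild type 4, with differences of 1.18-fold and 1.58-fold. The beta globin gene ENSDARG00000097238 had the same order of fish, with 43.7, 35.7, 29.6 and 28.3 CPM. Other blood genes were highest in wild type 2 and lowest in wild type 1. These were alas2 (22.1, 49.3, 29.3 and 26.9 CPM) and the beta globin gene ENSDARG00000069734 (5.45, 19.4, 7.71 and 5.93 CPM). The summed share of skin markers varied more, 2.77-fold beside 1.33-fold for globin genes. This came largely with krt5, a keratin gene of the epidermis, which had 33.6, 128, 347 and 91.4 CPM, and the mutants 22.2 to 671 CPM. The markers krt4 (117, 128, 168 and 71.2 CPM) and icn (120, 93.4, 118 and 66.1 CPM) were more even and lowest in wild type 4.

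Ribosomal protein genes were higher in wild type 1 than in the other 3 fish almost throughout. The 80 genes took 6.05%, 4.12%, 4.06% and 3.99% of the counts in wild types 1 to 4, and 4.16% to 5.62% in the mutants, and 78 were highest in wild type 1, beside 35.7% of all genes. Their median CV was 24.4%, and 3.37% without wild type 1. RPLP0, the stalk protein gene, had 3484, 2270, 2241 and 2497 CPM. The gene RPL3 was an exception, also among those 10 least variable genes of at least 50 CPM, with 1066, 1052, 1088 and 1123 CPM.

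Immediate early genes varied more between the fish than genes as a whole, with a median CV of 35.8% beside 18.9%. Without wild type 1 these medians were 23.5% and 9.06%. The medians of the atrophy and fasting list (22.5%) and the clock list (17.6%), over all 4 fish, were nearer to that of all genes. Immediate early genes took 0.109%, 0.0614%, 0.0611% and 0.0675% of the counts, and 15 of 19 were highest in wild type 1, beside 35.7% of all genes. GADD45B (ENSDARG00000027744), a stress response gene, had 384, 170, 126 and 60.1 CPM, and BTG2, a growth arrest gene, had 40.3, 3.84, 10.3 and 13.5 CPM. FKBP5, a gene induced by glucocorticoids, had 162, 62.4, 105 and 241 CPM, and the mutants had 191 to 522 CPM. Wild types 1 and 4 were thus the high fish for FKBP5 and wild type 2 the low one.

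Heat shock and clock genes had other patterns. Heat shock genes took 0.192%, 0.348%, 0.392% and 0.331% of the counts in wild types 1 to 4. The inducible Hsp70 gene hspa1b had 3.79, 65.1, 202 and 66.4 CPM, and 4.82 to 74.9 CPM in the mutants. Wild type 3 was the highest of all 10 libraries for it and wild type 1 the lowest. The clock list took 0.0707%, 0.0495%, 0.0523% and 0.0513%, and its member PER3, which represses the clock's own activators, had 60.8, 26.4, 25.4 and 18.7 CPM, against 3.90 to 21.2 CPM in the mutants. Clock genes did not share 1 direction in wild type 1. Of 24 at 5 CPM or more, 11 were highest there and 8 lowest, beside 35.7% and 43.6% of all genes. Their median log2 difference from the 4-fish mean was 0.04 in wild type 1.

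**Figure D4:**
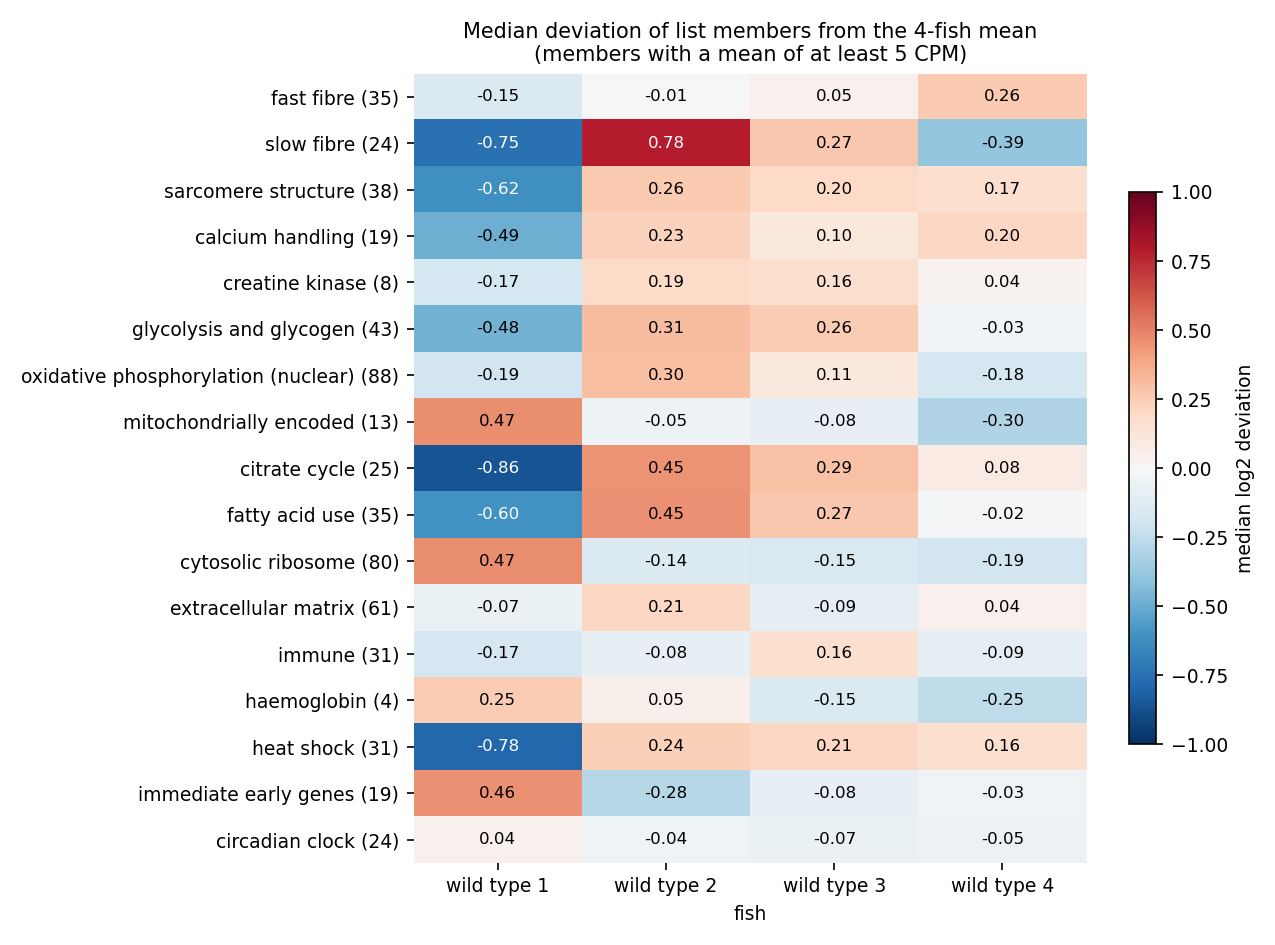
Median over each list's genes of the log2 difference from the mean of the 4 wild types, per fish (colour scale in log2 units, genes with a mean of at least 5 CPM). Wild type 1 is above the mean for ribosomal and mitochondrially encoded genes and below it for most metabolic, sarcomere and calcium lists, while wild type 2 is above it for slow fibre, fatty acid and oxidative phosphorylation genes.

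Most genes varied little between the fish and a small set varied widely. Of 6468 genes with a mean of at least 5 CPM, 1677 (25.9%) differed by more than 2-fold and 291 (4.5%) by more than 4-fold between the highest and the lowest wild type. The CV ran from 5.67% at the 10th percentile to 45.7% at the 90th. Of the 291 genes, 177 had their lowest value in wild type 1 and 79 their highest. Without wild type 1, 60 of the 291 still differed by more than 4-fold, and the number over 2-fold was 320. In the 6 mutants, a larger group in which a range is wider by its size alone, 358 of 6433 genes (5.57%) differed by more than 4-fold. The lists shared 93 genes, 32.0% of the wild type list and 26.0% of the mutant list.

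**Figure D5:**
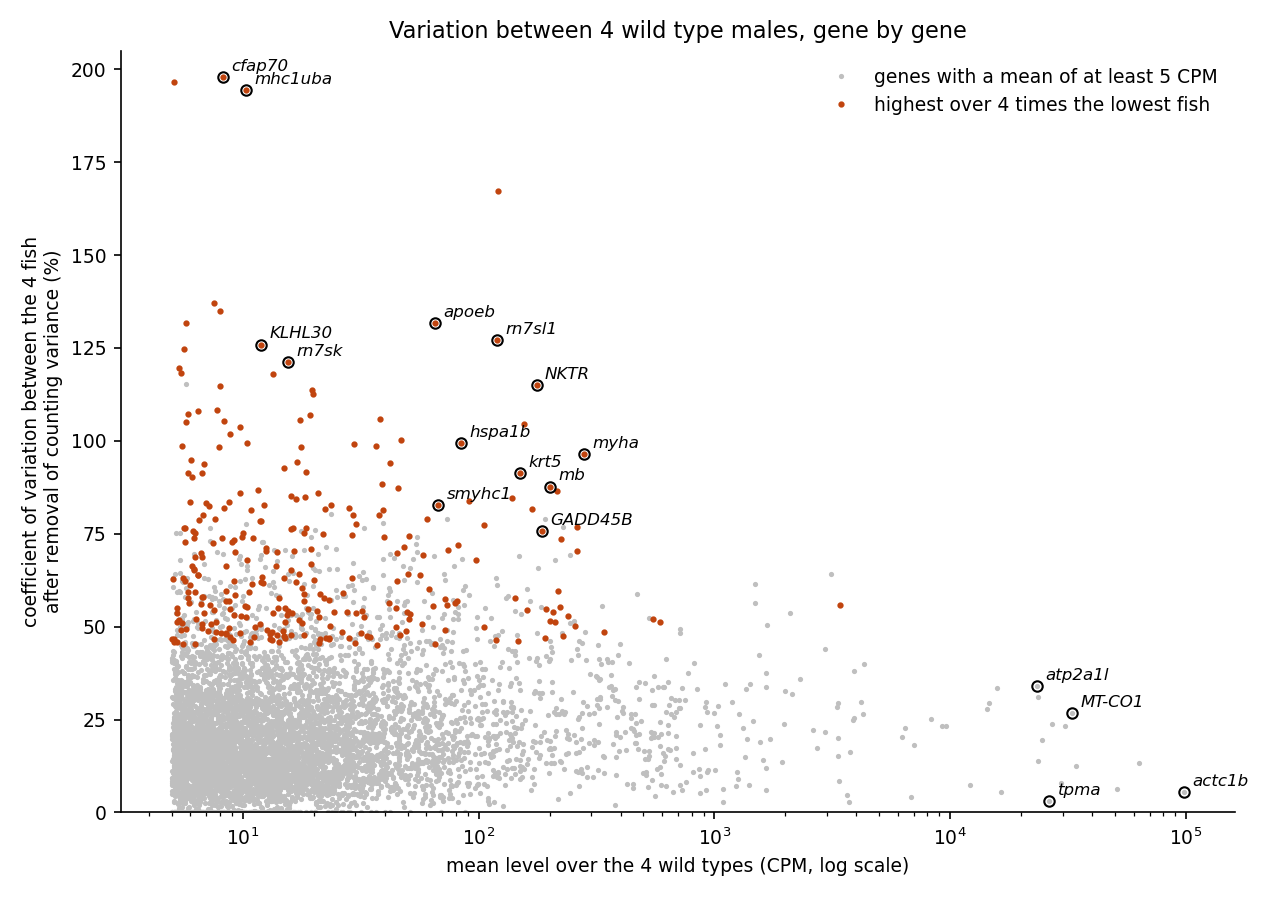
CV between the 4 wild types (percent, counting variance removed) against the mean level (CPM, log axis) for 6468 genes, with genes over 4-fold between the highest and the lowest fish in red and a choice of genes named. Red points begin at a CV near the 90th percentile of 45.7%, cfap70 and mhc1uba stand at the top with CVs of 198% and 194%, and actc1b and tpma, far to the right, lie near the bottom.

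The most variable genes were mostly high in 1 fish. The cilium gene cfap70 had 32.8, 0.108, 0.115 and 0.0243 CPM in wild types 1 to 4, and 0.0680 to 0.990 CPM in the 6 mutants. The level in the left out wild type library, where ddx4 was high, was 11.5 CPM. Another gene of motile cilia, DRC1, had 16.9, 3.68, 3.09 and 2.16 CPM. Wild type 1 was the high fish for both, and it was also the member with the most ddx4 (1.66 CPM). Libraries with lower cfap70 had more ddx4, a tert+/- library among the 6 mutants with 3.71 CPM and the left out wild type with 116 CPM. The part of germ cell RNA in the levels of cfap70 and DRC1 was not tested.

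The gene zgc:172323, whose product has no name in the gene table, had 0.0277, 20.2, 0.0287 and 0.195 CPM, and the mutants had 0.0227 to 4.66 CPM. In this gene wild type 2 was high and the rest held 1, 1 and 8 counts. A gene with no symbol, ENSDARG00000103816, chosen after its values were seen, had a CV of 167% at a mean of 121 CPM. The apolipoprotein E gene apoeb, which serves lipid transport, had 38.5, 15.8, 194 and 14.1 CPM, with wild type 3 high. The calcium channel gene cacna1aa had 0.775, 0.595, 12.4 and 17.3 CPM, which split the fish into wild types 3 and 4 above and wild types 1 and 2 below. The kelch gene KLHL30 had 34.002, 9.71, 0.831 and 3.48 CPM.

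Small non-coding RNAs of the cytosol and nucleus were among the 20 most variable genes. The signal recognition particle RNA rn7sl1 had 72.5, 347, 30.1 and 30.4 CPM and the transcription regulator RNA rn7sk had 10.8, 43.5, 2.98 and 5.08 CPM. Both were highest in wild type 2, and the left out wild type library had 4823 CPM of rn7sl1 and 577 CPM of rn7sk. Neither RNA carries a poly(A) tail. Several of the 20 were high in wild type 1 only, among them NKTR (481, 62.6, 79.8 and 82.5 CPM), the stress sensor gene of the endoplasmic reticulum ern1 (17.2, 1.73, 1.98 and 2.19 CPM) and the urea cycle gene CPS1 (21.7, 2.14, 3.58 and 4.60 CPM). When the ranking was repeated without wild type 1, 7 of the 20 were again among the 20 most variable.

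At the other end, among genes with a mean of at least 50 CPM, stood genes of several roles, some of which are given here. EDF1, a transcription coactivator gene, had 68.9, 69.0, 69.7 and 70.0 CPM, and EIF4EBP2, a gene for a repressor of translation start, had 88.1, 87.0, 89.1 and 86.8 CPM. ITM2B (ENSDARG00000007098) had 126, 125, 131 and 125 CPM, and BTF3, part of the nascent polypeptide complex, had 367, 385, 385 and 381 CPM. In these genes the 4 fish, wild type 1 included, differed by at most 1.05-fold. For EDF1 and EIF4EBP2, and also for oaz1b, the spread was no larger than counting alone would give.

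The wild types were last set against the 6 mutants to see where they differ from the rest of the series. With edgeR's quasi-likelihood test and Benjamini-Hochberg adjustment over 17970 genes, 0 genes (0%) were called at an adjusted p under 0.05, and the lowest adjusted p was 0.693. At an unadjusted p under 0.05 there were 1268 genes (7.06%), of which 598 (3.33%) were higher and 670 (3.73%) lower in wild types. DESeq2 called 19 genes (0.106%), 6 higher and 13 lower, and limma-voom called 0, with 2475 genes below 0.05 before adjustment. Without wild type 1 edgeR again called 0, with 0.0875 as the lowest adjusted p and 2149 genes below 0.05 before adjustment.

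None of the genes named next passed the adjusted test. The gene with the smallest p was NRIP1, a corepressor of nuclear receptors that restrains oxidative metabolism in mammals, with 13.8, 16.99, 13.6 and 20.5 CPM in the wild types and 5.91 to 9.96 CPM in the mutants (log2 difference 1.1, SE 0.18, edgeR adjusted p = 0.693). The sestrin gene sesn4 had 14.5, 21.0, 19.95 and 22.2 CPM, against 9.27 to 12.5 CPM (log2 difference 0.90, SE 0.15, edgeR adjusted p = 0.693). In the other direction cmpk, a nucleotide kinase gene, had 10.6, 11.6, 9.23 and 8.20 CPM, against 15.7 to 18.0 CPM (log2 difference -0.75, SE 0.14, edgeR adjusted p = 0.695). These groups did not overlap, a property by which the genes were picked. The glycan synthesis gene PMM2 had 1.44, 2.54, 2.29 and 1.63 CPM and the mutants 2.74 to 4.66 CPM (log2 difference -1.03, SE 0.23, edgeR adjusted p = 0.695).

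For tert itself the log2 difference was 0.20 (SE 0.22, edgeR adjusted p = 0.872), and wild types 2 to 4 lay within the range of the mutants while wild type 1 lay above it. The shares of 4 wild types and 6 mutants overlapped in all 34 lists, and the wild type mean lay within the range of the mutants in 33. Some lists share genes, and full separation is rare in groups of this size even where means differ. Overlap is thus a description and does not show that the groups were equal. The exception was the purine nucleotide list, with a mean of 3.95% and a highest mutant at 3.91%. Its shares were 4.59%, 3.44%, 3.77% and 4.01% in wild types 1 to 4. Wild type 1 was thus the highest, and wild types 2 and 3 lay within the range of the mutants.

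Across the nuclear oxidative phosphorylation list the log2 differences were below 0 for 85 of 90 genes with a median of -0.21, where the median of all genes was 0.02 with 9314 genes above and 8656 below 0. An unadjusted p under 0.05 was reached by 6 genes lower and 1 higher in wild types, 7.78% of the list, near the 7.06% of all genes. Without wild type 1 the median was -0.17, with 75 of 90 genes below 0. Matrix genes had a median of 0.13, with 67 of 88 above 0, and 0.19 without wild type 1. Of these 88, 4.55% reached an unadjusted edgeR p under 0.05 with all 4 wild types. The mitochondrially encoded genes had a median of 0.02 with wild type 1 and of -0.19 without it, and the citrate cycle genes -0.07 and 0.11, so these lists changed direction with that fish. Larger shares at an unadjusted edgeR p under 0.05 were seen in the clock and sterol synthesis lists, which were picked for it. In the clock list it was 20.5% of 39 genes, 5 higher and 3 lower in wild types. In the sterol list it was 17.9% of 28 genes, all 5 lower in wild types. Without wild type 1 the clock list had 2 higher and 5 lower, so its balance turned with that fish. The sterol list then had 1 higher and 3 lower, beside 1113 higher and 1036 lower of 17817 genes. Ribosomal protein genes were below 0 for 69 of 80, and for all 80 without wild type 1, where 9354 of all 17817 genes were below 0. An unadjusted edgeR p under 0.05 was reached by 0 of the 80, and by 4, all lower in wild types, without wild type 1. Because edgeR called 0 genes in all, no list could contain a called gene.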

How the data were processed

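Muscle RNA libraries (TruSeq RNA v2) of 13 fish were available as whole-number gene counts and as RPKM values. According to the submitters' processing notes the authors used bcl2fastq 1.8.4, STAR 2.4.1d, featureCounts 1.4.6-p4 and the GRCz10 genome; no source used here gives the release of the annotation, the setting for strand or the handling of reads with several matches. The deposited counts are raw, and the study's own expression values came from kallisto, not used here. The deposited RPKM values fitted the 13 library totals applied in turn down the table rather than each library's own total (median CV of the implied gene length 65.2% with a library's own total, at most 0.0541% with totals in turn, over 2227 genes), so they served only to recover gene lengths, which gave TPM. Per-sample columns left unused numbered 0. Gene symbols came from the supplied name table (26269 of 32105 genes).

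CPM scales a gene's counts to the total of its library. The log2 scale used a pseudocount of 0.5 CPM, and CVs had Poisson counting variance removed. Intervals and the limit for a count of 0 (3 counts) cover counting error only. Wild types were tested against the mean of tert+/- and tert-/- in the 10 libraries with low ddx4 with edgeR 4.0.16 (TMM factors, filterByExpr, quasi-likelihood test, Benjamini-Hochberg adjustment), in R 4.3.3, after a trial on simulated counts. The SE printed with a log2 difference is approximate. It was worked back from that test as the absolute log2 difference over the square root of its F statistic. Alternatives were DESeq2 1.42.0, other scaling factors, no filter, all 13 libraries, each mutant genotype alone, TPM shares, totals without mitochondrially encoded genes, other thresholds, all 5 wild types and leaving out each wild type. The use of limma-voom (limma 3.58.1) and the count in the 6 mutants were added after seeing the data. Tables used numpy 2.4.6, pandas 2.3.3 and scipy 1.17.1, and plots matplotlib 3.10.9.

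The members and gene lists were chosen with earlier results of these data known. Named genes were the 20 with the largest share, up to 6 members per list by share and 3 by CV, the 20 most and 10 least variable genes (means of at least 5 and 50 CPM, with a symbol), the 5 of smallest p per direction without overlap in the genotype comparison, their paralogs, and tert and ddx4. SF3B1, SRSF11, PYGM, myh7ba, myh7bb, MYOZ2, CKB and ENSDARG00000103816 were chosen after their values were seen.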

Additional observations from a re-analysis of the deposited data

Results flagged for a closer look

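For 109 values named for the 4 wild types, a fish was marked when its gap to the nearest other fish, as a share of the whole range, exceeded Dixon's 95% critical value for 4 values, which chance alone gives in about 1 of 20 groups of 4. Marks fell on 21 values, 14 of them in wild type 1. Part of the genes had been named because they vary, so the number of marks cannot be set against that rate.

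Wild type 1 was far from the other 3 fish in the shares of counts of sarcomere structure (1.82%), calcium handling (0.228%), circadian clock (0.0707%), immediate early (0.109%) and cytosolic ribosome genes (6.05%). It was also far above them for TERT (7.80 CPM), NKTR (481 CPM), ern1 (17.2 CPM), CPS1 (21.7 CPM), cfap70 (32.8 CPM) and DRC1 (16.9 CPM). Marks in wild type 1 fell on ddx4 (1.66 CPM), SF3B1 (427 CPM) and SRSF11 (301 CPM) too, but these are no test. The rule for members used ddx4, and SF3B1 and SRSF11 were chosen after they were seen to be high in this fish. Wild type 2 was far above the rest for zgc:172323 (20.2 CPM) and rn7sl1 (347 CPM) and, within a narrow range, stood off for the main TTN gene (7220 CPM). Wild type 3 stood off for apoeb (194 CPM) and, within a narrow range, for ITM2B (131 CPM), and wild type 4 for mhc1uba (40.3 CPM) and c7b (14.9 CPM).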

How the results depend on the processing

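Of 109 alternative values for 15 results, 92 stayed within 1 SD of the 4 fish or, for counts of genes, within 1.5 times. For shares and the fast to slow ratio, leaving out 1 of 4 fish cannot move a mean by 1 SD. The fast to slow ratio also cannot change with the total it is scaled to. Such values were bound to stay, so the 92 do not measure how stable the results are. Per length (TPM), shares were 1.92% for glycolysis, 2.66% for nuclear oxidative phosphorylation, 16.0% for mitochondrially encoded, 0.241% for matrix, 0.0624% for immune and 0.0735% for globin genes, and 45.99% for the 10 leading genes. With mitochondrially encoded genes out of the total, shares were 50.4% for fast fibre, 0.961% for matrix and 0.0847% for immune genes, and 46.4% for the 10 leading genes. At 5 CPM in place of 1 CPM, 5368 genes were detected in all 4 fish. Genes over 4-fold numbered 823 at a mean of at least 1 CPM, 110 at 20 CPM, 55 to 253 when each fish was left out (55 without wild type 1, where the mean of at least 5 CPM was taken over the remaining 3 fish, and 60 with it taken over all 4), and 40 genes had an edgeR biological CV over 0.7. DESeq2 called 19 genes between wild types and mutants where edgeR called 0. No paired analysis was possible because the labels give no replicate numbers that link fish of different genotypes. The causes of these changes were not tested.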
